A study of Mus musculus with 2 samples.

Results

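Heat shock proteins are chaperones that bind unfolded protein chains and release them in cycles driven by ATP. A set of 10 such genes was followed here through the cells of the mouse testis. They were Hspa1a, Hspa1b, Hspa1l, Hspa2, Hspa5 and Hspa8 of the HSP70 family, the HSP110 genes Hspa4l and Hsph1, and the HSP90 genes Hsp90aa1 and Hsp90ab1. The list was set by gene name, with earlier results of these data known, and it holds 10 of the 36547 genes listed in the WT and KO tables together. All 10 were listed in both tables.

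HSP70 proteins need J-domain partners to hydrolyse ATP and exchange factors, the HSP110 proteins among them, to let go of a client, while HSP90 acts later on partly folded clients such as kinases and steroid receptors. Some members of these families are kept on in nearly every cell, and others are switched on by heat shock factors when proteins unfold. The testis is known also for a further kind, chaperone genes whose transcripts belong to meiotic or post-meiotic germ cells.

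Single-cell RNA libraries had been made from testes of C57BL/6 mice, 12 weeks old, 1 of WT and 1 of KO genotype. KO mice lack Alkbh5, an enzyme that removes the N6-methyladenosine mark from RNA, in every cell of the body, and WT mice carry the intact gene. The study's introduction speaks of 1 mouse per genotype and its methods of 3, so each library may pool animals. With 1 library per genotype no test between WT and KO was possible, no p-value is given, and each interval below covers counting error only.

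Each value is a number of unique molecular identifiers (UMIs), 1 for each captured RNA molecule. UMIs of a gene were summed over the cells of a class and divided by all UMIs of that class, as counts per 1000000 UMIs (CPM). Reads came from the 3' end of transcripts, so CPM were compared for 1 gene between classes and never between genes. The libraries held 5756 WT and 7012 KO barcodes with 80283221 and 82056760 UMIs, and 45 barcode sequences occurred in both. Alkbh5 itself had 607 UMIs in WT and 5 in KO, which fits the labels.

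Clusters were named from marker genes, and a class is called "like" a cell type for that reason. The classes compared held 190 WT and 1064 KO spermatogonia-like cells, 35 and 121 early spermatocyte-like, 705 and 661 late spermatocyte-like, 837 and 799 early-stage, 1086 and 995 mid-stage and 330 and 317 late-stage round spermatid-like, and 2404 and 1311 sperm-like cells. Of somatic cells there were 94 WT and 1171 KO Leydig-like, 48 and 468 Sertoli-like, and 26 and 81 macrophage-like cells. An endothelial-like cluster of 1 WT and 24 KO cells is described and enters whole-library values, but its WT and KO cells were not compared.

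The somatic classes differed in quality between the libraries. The median Sertoli-like cell had a UMI of 6 of the 14 Sertoli markers in WT and of 10 in KO, and the summed level of those markers was 10179 against 23050 CPM. Leydig-like cells had a median of 11 of 12 markers in both libraries. RNA of other cells was present in every class. Relative to sperm-like cells, the 20 most abundant sperm transcripts had a median level of 53.4% in WT Sertoli-like cells and 14.5% in KO ones, of 6.75% and 5.82% in Leydig-like cells, and at 35.1% and 28.0% in macrophage-like cells.

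Hspa1a and Hspa1b encode the stress-inducible cytosolic HSP70 and lie near each other on chromosome 17. In GRCm38, Hspa1b spans chr17:34956436-34959238 and Hspa1a spans chr17:34969190-34972156, both on the minus strand, with 9951 bases between them. Hspa1l, an HSP70 gene known for its expression in spermatids, begins 546 bases beyond the start of Hspa1a and runs the other way, at chr17:34972703-34979285 on the plus strand. The 250 bases before the start of each gene are shown because these neighbours had opposite cell patterns in the data. They come from RefSeq on GRCm38.p6, at chr17:34972157-34972406 for Hspa1a, chr17:34959239-34959488 for Hspa1b and chr17:34972453-34972702 for Hspa1l, and capitals mark a heat shock element of 2 units, GAANNTTC or TTCNNGAA.
Hspa1a: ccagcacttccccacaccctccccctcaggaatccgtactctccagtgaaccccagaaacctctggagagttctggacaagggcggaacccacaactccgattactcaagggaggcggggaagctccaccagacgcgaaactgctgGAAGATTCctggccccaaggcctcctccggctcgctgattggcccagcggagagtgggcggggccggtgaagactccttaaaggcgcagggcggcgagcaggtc
Hspa1b: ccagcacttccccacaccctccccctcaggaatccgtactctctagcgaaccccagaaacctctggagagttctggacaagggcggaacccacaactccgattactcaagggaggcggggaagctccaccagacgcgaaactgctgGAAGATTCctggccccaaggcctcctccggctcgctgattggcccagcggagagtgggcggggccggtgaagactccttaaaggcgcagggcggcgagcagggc
Hspa1l: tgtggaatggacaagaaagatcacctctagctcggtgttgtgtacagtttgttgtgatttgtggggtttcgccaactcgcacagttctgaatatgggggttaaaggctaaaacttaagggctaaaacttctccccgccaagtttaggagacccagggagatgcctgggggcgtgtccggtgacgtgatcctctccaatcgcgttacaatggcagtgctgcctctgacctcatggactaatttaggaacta

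The Hspa1a and Hspa1b stretches were identical at 247 of 250 bases and each held 1 such element, starting 104 bases before the start of transcription. The Hspa1l window held none. Windows reaching from 250 bases before to 50 bases after the start were available for 7 of the 10 genes, with Hspa8, Hsp90aa1 and Hsp90ab1 left out. Of all 32851 such windows, 15.1% held a 2-unit element on either strand and 0.603% held one of 3 units, GAANNTTCNNGAA or TTCNNGAANNTTC, which contains the shorter form. Among the 7 genes the longer element was found in Hsph1, 36 bases after the start, and the shorter one also stood 33 bases before it. Hsph1 had a second window with another start, from which these distances were 15 bases after and 54 bases before.

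Hspa1a and Hspa1b transcripts are alike, which matters for counting. Their annotated transcripts matched at 93.6% of 2701 aligned bases. No run of 60 bases from the last 500 bases of either transcript occurred in the other, so reads near the 3' end can tell them apart, whereas 56.3% of all such runs of Hspa1a were shared. How the counting treated shared reads is not given in the sources used here, and both values are uncertain to that extent. Gm20481, a protein-coding gene on the opposite strand, overlaps Hspa1a but had no row in the tables, and the antisense gene Gm10501 overlaps Hspa1l and had one. Whether the counting used strand is not given either.

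Hspa1a was a somatic transcript in both libraries. Leydig-like cells held 105 UMIs in WT and 1541 in KO, at 101 CPM (95% Poisson interval 82.8 to 123) and 150.1 CPM (143 to 158). Macrophage-like cells held 54 and 214 UMIs, at 166 and 267 CPM. Endothelial-like cells of the KO library reached 393 CPM from 62 UMIs. No germ cell class went above 1.72 CPM in WT or 5.26 CPM in KO. Germ cells therefore carried at most a few percent of the Leydig-like level, and the order of the germ cell classes was mostly within counting error.

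Sertoli-like cells stood apart from the other somatic cells for Hspa1a. In WT 0 UMIs were counted in 48 cells, which at 3 counts allows up to 6.52 CPM, and in KO 73 UMIs gave 15.7 CPM (12.3 to 19.7). The sum stayed under the 100 UMIs that were asked for before a ratio was read. Hspa1b had 0 UMIs in WT and 14 in KO in the same class.

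Hspa1b followed the same map. Leydig-like cells held 29 WT and 444 KO UMIs, at 28.0 CPM (18.7 to 40.1) and 43.2 CPM (39.3 to 47.5). Macrophage-like cells held 4 and 39 UMIs, at 12.3 and 48.7 CPM, and the 24 KO endothelial-like cells held 19 UMIs, at 120.3 CPM. In germ cells no class had more than 16 UMIs in either library. Over 33 points, each a cluster of at least 20 cells in 1 library, log2(CPM + 1) of Hspa1a and Hspa1b had a Pearson r of 0.96. The points share the 2 libraries, so this is a description.

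Hspa1a was not evenly spread over the Leydig-like cells. Of 94 WT cells 55 had no Hspa1a UMI and the highest had 11, and of 1171 KO cells 575 had none and the highest had 18. The tenth of cells with the most Hspa1a UMIs held 49.5% of them in WT and 47.2% in KO. After each cell was thinned to 5729 UMIs, which left out 7 WT and 180 KO cells of the class, a Hspa1a UMI was seen in 33.3% of WT cells (29 of 87, exact 95% binomial interval 23.6 to 44.3%) and 41.4% of KO cells (410 of 991, 38.3 to 44.5%). The unthinned shares were 41.5% and 50.9%. Sperm-like cells gave the background, 0.367% in WT and 1.00% in KO at the same depth.

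Leydig-like cells with a Hspa1a UMI also differed in some other chaperones and not in others. Dnajb1, a J-domain partner of HSP70 that is itself heat-inducible, stood at 494 CPM (393 to 613) in the 29 WT cells with a Hspa1a UMI and 108 CPM (75.9 to 149.99) in the 58 without. In KO it stood at 636 CPM (604 to 669) in 410 cells and 213 CPM (198 to 230) in 581. Hspa1b stood at 66.2 against 0 CPM in WT and 71.5 against 22.5 CPM in KO. The Hspa1b and Dnajb1 intervals did not overlap between cells with and without Hspa1a in either library. No share over all genes is at hand for such intervals, so this is not read as particular to these genes.

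Hspa8, Hsp90aa1, Hsp90ab1 and Hspa5 showed smaller gaps between the same cells. Hspa8 stood at 1463 against 791 CPM in WT and 1339 against 912 CPM in KO, and Hsp90aa1 at 421 against 292 CPM and 699 against 427 CPM. Hsp90ab1 stood at 795 against 686 CPM in WT and 1081 against 895 CPM in KO, and Hspa5 at 1101 against 936 CPM and 1186 against 1098 CPM. In KO the intervals of these 4 genes did not overlap, and in WT those of Hsp90aa1, Hsp90ab1 and Hspa5 did. The KO intervals are narrow, and even the small Hspa5 gap fell outside them. Here too no share over all genes is at hand. Hspa4l stood at 138 against 105 CPM in WT and 73.2 against 64.3 CPM in KO, and Hspa2 at 66.2 against 30.1 CPM and 28.1 against 33.3 CPM. The intervals of Hspa4l and Hspa2 overlapped in both libraries. So did those of Bag3, an HSP70 adaptor, at 66.2 against 18.1 CPM in WT and 66.8 against 51.1 CPM in KO. Hsph1, at 0 against 12.0 CPM and 14.5 against 11.4 CPM, also had overlapping intervals in both. The same held for Hspa1l, at 12.0 against 9.03 CPM and 12.8 against 9.01 CPM. Summed immediate early genes, such as Atf3, which cells switch on quickly after many stimuli, stood at 9299 against 3735 CPM in WT and 15128 against 8562 CPM in KO. Cells are not replicates, and part of these gaps can come from choosing cells by a single count.

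**Figure D1:**
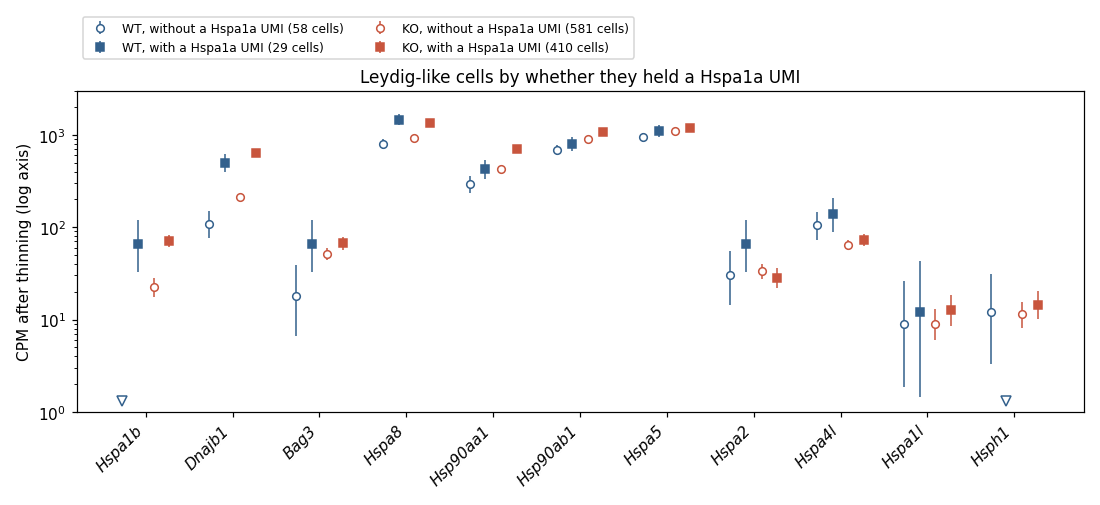
CPM on a log axis in Leydig-like cells thinned to 5729 UMIs, for cells with (filled squares) and without (open circles) a Hspa1a UMI, WT in blue and KO in red, with 95% Poisson intervals. Open triangles at the lower edge mark 0 UMIs, and Dnajb1 stands at 108 and 494 CPM in WT and at 213 and 636 CPM in KO, without and with the UMI.

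Hspa1l was a transcript of late germ cells. Its level was 7.08 CPM in WT and 6.50 CPM in KO early-stage round spermatid-like cells, 49.8 and 54.4 CPM in mid-stage, 137 and 164 CPM in late-stage, and 191 CPM (186 to 197) and 249.6 CPM (241 to 258) in sperm-like cells. Each of these steps exceeded the counting intervals in both libraries. Among the 4 sperm-like clusters it was highest in the one led by 1700008P02Rik and Prm1, at 247 CPM in WT and 336 in KO. In the cluster led by Itpr3os and Spem2 it stood at 111 CPM in WT and 249 in KO.

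Hspa2 encodes the HSP70 protein that meiotic spermatocytes need, and male mice without it are infertile. It lies at chr12:76404176-76406938. Its level went from 77.8 CPM in WT and 55.8 CPM in KO spermatogonia-like cells to 363 and 291 CPM in early and 739 CPM (725 to 754) and 827 CPM (810 to 844) in late spermatocyte-like cells. It then stood at 512 and 591 CPM in early-stage and 269 and 295 CPM in mid-stage round spermatid-like cells. In late-stage cells it was down to 17.2 and 16.7 CPM. Hspa2 and Hspa1l thus had their highest levels at different stages, and both were present in mid-stage round spermatid-like cells. There Hspa2 was at 36.4% (WT) and 35.7% (KO) of its own highest level, and Hspa1l at 26.1% and 21.8%. Over the 33 points their Pearson r was -0.79.

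Hspa4l, an HSP110 exchange factor of HSP70 that is abundant in the testis, lies at chr3:40744495-40796103. Its level climbed at each germ cell class, from 222 CPM in WT and 161 CPM in KO spermatogonia-like cells to 419 and 477 CPM in late spermatocyte-like, 738 and 794 CPM in mid-stage round spermatid-like, and 892 CPM (881 to 904) and 948 CPM (932 to 965) in sperm-like cells. Late-stage round spermatid-like and sperm-like cells did not differ beyond counting error in WT, at 871 and 892 CPM, and neither did early and late spermatocyte-like cells there. Of the members it was the one seen in nearly every late germ cell, with a UMI in 99.5% of WT and 99.7% of KO sperm-like cells.

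Hsph1, the HSP105 gene, is a second HSP110 exchange factor and lies at chr5:149614287-149636376 on the minus strand. It stood at 10.7 CPM in WT and 53.7 CPM in KO early spermatocyte-like cells, from 3 and 47 UMIs, at 13.7 and 14.4 CPM in late spermatocyte-like cells, and was highest in late-stage round spermatid-like cells, at 138 CPM (128 to 148) and 126 CPM (116 to 137). The change came within the mid-stage class, whose cluster led by Slc39a12 held 21.7 and 18.9 CPM and whose cluster led by Cd46 held 113 and 142 CPM. It did not last, and in the Itpr3os cluster Hsph1 was at 5.03 CPM in WT and 5.05 CPM in KO. Hspa4l kept 947 and 1185 CPM in that same cluster, so the exchange factors parted in the last sperm-like cells.

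**Figure D2:**
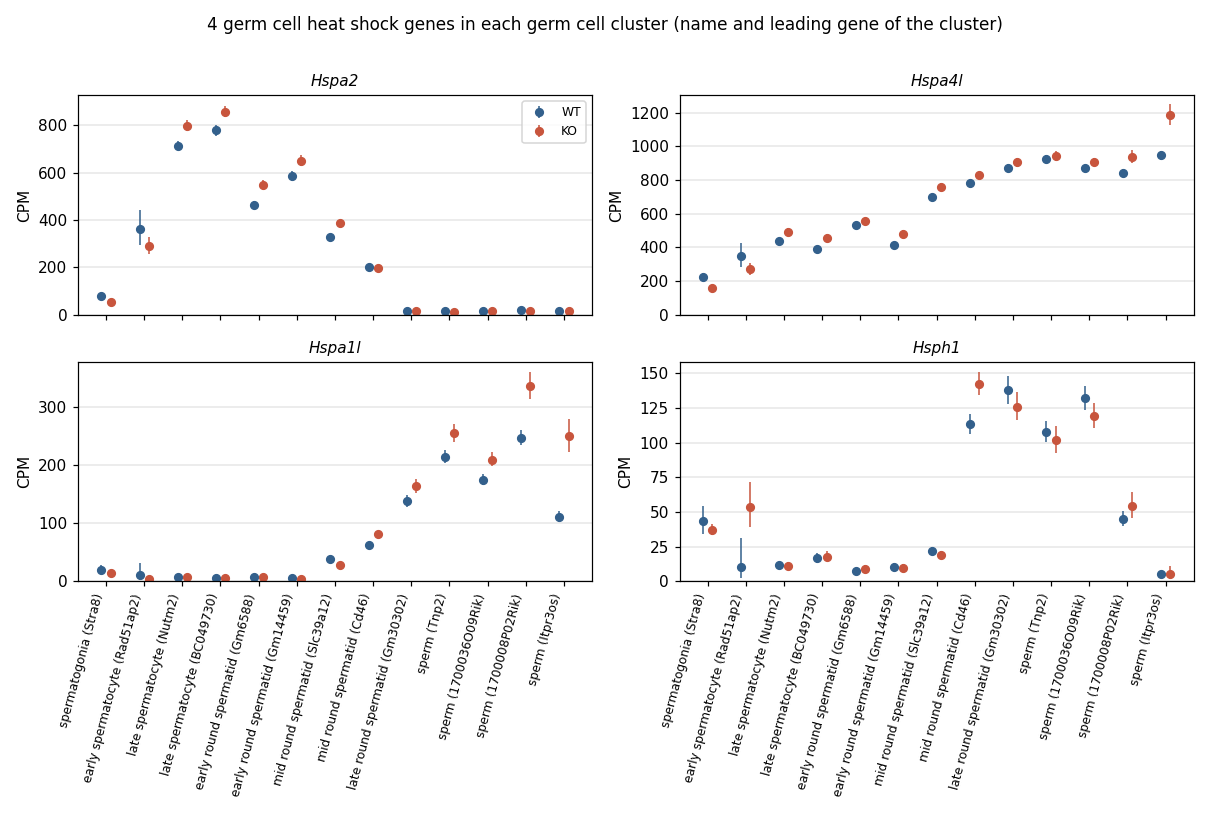
CPM of Hspa2, Hspa4l, Hspa1l and Hsph1 in the 13 germ cell clusters, each named by its class and leading gene, for WT (blue) and KO (red) with 95% Poisson intervals and axes from 0. Hspa2 peaks in late spermatocyte-like clusters, Hspa4l climbs to 947 and 1185 CPM in the last cluster, and Hsph1 is at 5.03 and 5.05 CPM there.

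Hspa5 encodes BiP, the HSP70 of the endoplasmic reticulum, and lies at chr2:34771970-34777547. Its chr2:34771840-34772089 stretch, the 250 bases before the start, is shown because it holds an endoplasmic reticulum stress element (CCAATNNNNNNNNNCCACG, in capitals), which 0.119% of the 32851 windows held on either strand. The element starts 65 bases before the start of transcription.
Hspa5: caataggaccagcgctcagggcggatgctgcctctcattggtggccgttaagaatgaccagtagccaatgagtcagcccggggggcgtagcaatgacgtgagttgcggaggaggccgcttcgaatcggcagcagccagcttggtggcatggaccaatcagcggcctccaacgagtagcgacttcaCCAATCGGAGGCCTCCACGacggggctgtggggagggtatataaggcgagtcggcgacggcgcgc

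The highest Hspa5 level was in early spermatocyte-like cells, at 6022 CPM in WT (5739 to 6316) from 35 cells and 8362 CPM in KO (8172 to 8556) from 121 cells. Spermatogonia-like cells held 996 and 1144 CPM and late spermatocyte-like cells 824 and 869 CPM, so the peak covered a single class. From there the level went down to 436 and 587 CPM in early-stage, 43.0 and 72.5 CPM in mid-stage and 6.31 and 21.3 CPM in late-stage round spermatid-like cells. Leydig-like cells held 913 and 1138 CPM.

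The genes whose profile over the 33 points was most like that of Hspa5 were Emc7 (r 0.99), Hsp90b1 (0.98) and Dazap2 (0.98). Hsp90b1 encodes the HSP90 of the endoplasmic reticulum and Emc7 a subunit of its membrane protein complex. By the same measure, among 18766 genes, the nearest to Hsp90aa1 was St13 (0.98), a cofactor of HSP70 and HSP90, and the nearest to Hsph1 was Psme3 (0.94), a proteasome activator. Hspa1a was nearest to Ifitm2, Gbp7 and Wls (0.97, 0.96 and 0.96) and Hspa1b to Igtp, Ifitm3 and H2-T22 (0.98, 0.97 and 0.97). Several of these 6 are known as interferon-inducible genes. Hspa1l was nearest to Spata32, Hspa2 to Cox7b2, Hspa4l to Spa17, Hspa8 to Ndufa4 and Hsp90ab1 to Mrps35, each at an r of 0.97 or 0.98.

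Hspa8 encodes HSC70, the constitutive cytosolic HSP70, and lies at chr9:40800984-40810087. Leydig-like cells held 844 CPM (789 to 902) in WT and 1076 CPM (1056 to 1097) in KO, and spermatogonia-like cells 713 and 624 CPM. It was lost early in the germ line. Early spermatocyte-like cells held 430.4 and 439 CPM, late spermatocyte-like cells 28.1 and 44.0 CPM, mid-stage round spermatid-like cells 6.62 and 17.0 CPM, and sperm-like cells 1.10 and 5.98 CPM. A gene called constitutive was thus low among the transcripts of late germ cells, in classes where Hspa4l had its highest level.

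Hsp90aa1, the inducible HSP90, lies at chr12:110690605-110702728, and Hsp90ab1, the constitutive one, at chr17:45567775-45573271, both on the minus strand. Hsp90aa1 is also known as a gene that male meiosis requires. Its level was 1349 CPM in WT and 1683 CPM in KO spermatogonia-like cells, 3749 and 4769.9 CPM in early and 2352 and 2792 CPM in late spermatocyte-like cells, and 50.5 and 56.8 CPM in sperm-like cells. Of the classes compared, Hsp90ab1 was highest in spermatogonia-like cells, at 1343 and 1686 CPM, held 509 and 596 CPM in early and 148 and 208 CPM in late spermatocyte-like cells, and went down to 5.66 and 14.2 CPM in sperm-like cells. Of the 2 genes, the one named inducible was thus the one with its highest level in meiotic cells.

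**Figure D3:**
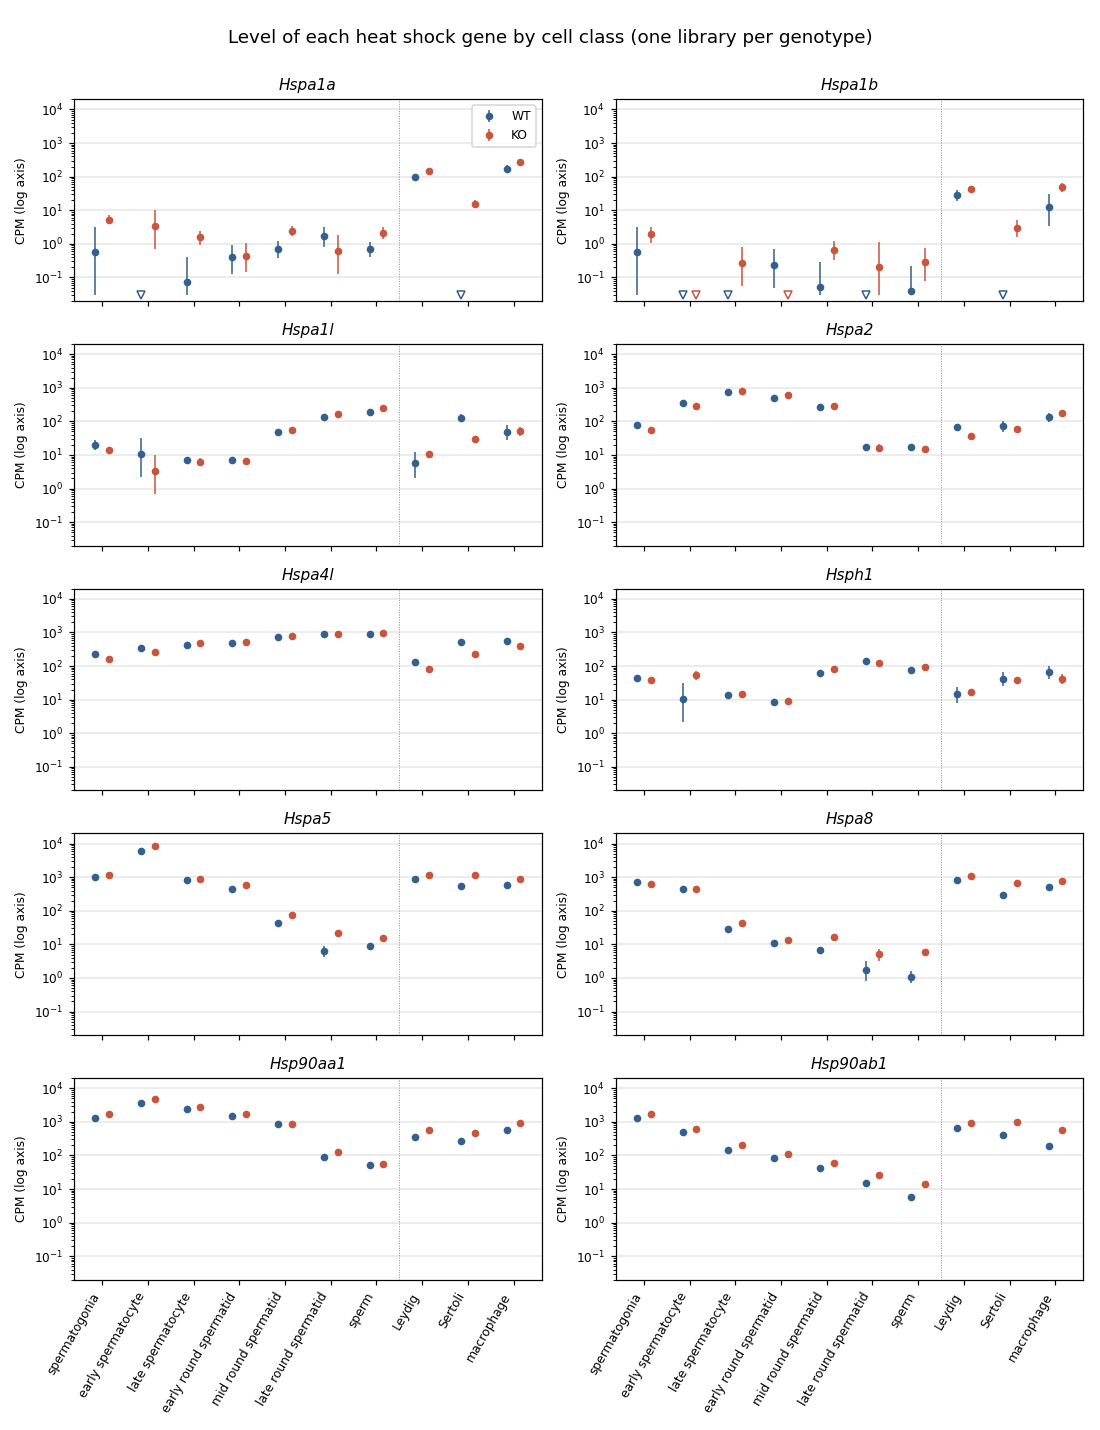
CPM of each of the 10 genes by cell class on a log axis, WT in blue and KO in red, with 95% Poisson intervals, where open triangles mark 0 UMIs and the dotted line parts germ cells from somatic cells. Hspa1a and Hspa1b are above 10 CPM only in somatic classes, while Hspa1l and Hspa4l are highest in sperm-like cells.

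Over all cells, several of these genes differed widely between the libraries. Hspa1a stood at 2.59 CPM in WT and 24.8 CPM in KO, Hspa1b at 0.511 and 6.71 CPM, Hspa8 at 39.9 and 266 CPM, Hsp90ab1 at 93.4 and 423 CPM, and Hspa5 at 279 and 638 CPM. The log2 ratios of KO over WT were 3.26, 3.72, 2.73, 2.18 and 1.20. Hspa1l, Hspa2, Hspa4l and Hsph1 had ratios of -0.32, -0.04, -0.31 and -0.12, and Hsp90aa1 had 0.32. Of the genes with a high ratio, Hspa1a, Hspa1b, Hspa8 and Hsp90ab1 had their highest levels in somatic or spermatogonia-like cells, and the libraries differed in how many of those cells they held. Hspa5 was highest in early spermatocyte-like cells, and late spermatocyte-like cells held 48.9% of its WT UMIs and 18.1% of its KO UMIs.

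Leydig-like cells supplied 1.29% of the UMIs of the WT library and 12.5% of the KO library, Sertoli-like cells 0.574% and 5.67%, and spermatogonia-like cells 2.13% and 10.2%. When the WT level of each class was weighted by the KO shares of UMIs, the log2 ratio over WT was already 2.54 for Hspa1a, 3.05 for Hspa1b, 2.42 for Hspa8, 1.65 for Hsp90ab1 and 0.83 for Hspa5. The remainder, KO over WT levels at equal shares, was 0.72, 0.67, 0.32, 0.53 and 0.36. It was 0.01 for Hspa4l and 0.11 to 0.26 for Hspa1l, Hspa2, Hsph1 and Hsp90aa1. The endothelial-like class entered the weighting with the level of its 1 WT cell, for Hspa1b 264 CPM from 2 UMIs. The larger part of each high ratio was therefore matched by the makeup of the libraries. Whether the shares reflect the testes or the capture of cells cannot be told apart with 1 library each.

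**Figure D4:**
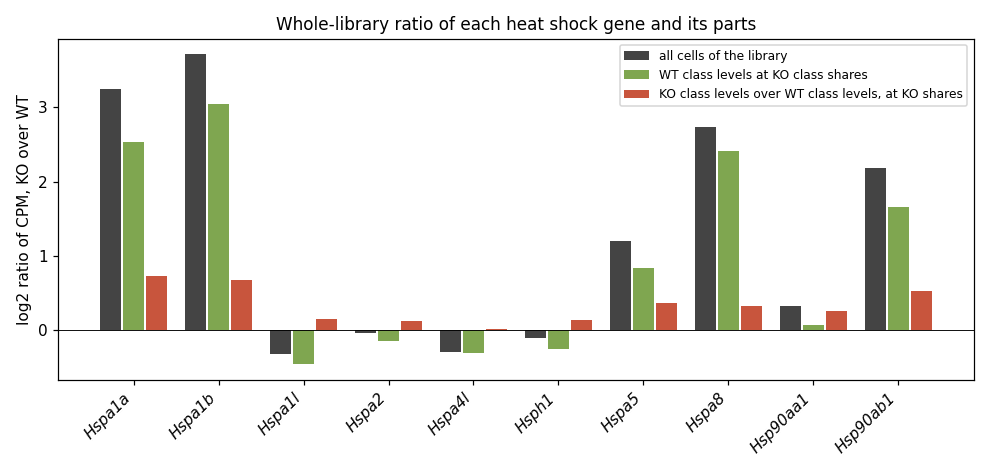
Log2 ratio of CPM, KO over WT, for each gene over all cells (dark), with WT class levels weighted by KO class shares (green), and the remainder (red), the green and red bars adding up to the dark one. For Hspa8 the bars are 2.73, 2.42 and 0.32, and for Hspa4l -0.31, -0.31 and 0.01.

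Within classes the genotypes were compared by a fold rule in place of a test. A gene was read in a class if it had at least 100 UMIs over both libraries there, and it was called higher or lower in KO if the CPM ratio was at least 1.5-fold. Of the 100 pairs of member and class, 78 could be read, 19 were higher, 4 were lower and 55 lay within 1.5-fold. By class, 6.47% (early-stage round spermatid-like) to 61.2% (Sertoli-like) of all genes read were higher under the same rule. From 5.34% (late spermatocyte-like) to 22.1% (macrophage-like) were lower. No share over all genes is at hand for the intervals and other settings that follow. The counting interval left out 0 in 22 of the 23 called pairs and lay wholly past 1.5-fold in 11. The same number, 11 pairs, kept a ratio past 1.5-fold under every other setting that was tried and gave a value. Some of these settings acted on certain classes only and could not move pairs in the others.

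From spermatogonia-like to early-stage round spermatid-like cells 1 pair was called. In spermatogonia-like cells 0 of 8 members were higher and 0 lower, against 8% and 13.7% of all genes read there. In early spermatocyte-like cells 0 of 6 were called in either direction, against 6.76% and 7.37%, and Hspa5 came closest at a log2 ratio of 0.47 (95% interval 0.40 to 0.55). In late spermatocyte-like cells 1 of 8 was higher and 0 lower, against 7.7% and 5.34%. That was Hspa8, at 28.1 CPM in WT and 44.0 CPM in KO, or 0.65 (0.45 to 0.85), and with equal weight for both clusters of the class it was 0.50. In early-stage round spermatid-like cells 0 of 8 were called, against 6.47% and 5.49%. Member medians in these 4 classes were -0.20, 0.13, 0.17 and 0.20, and those of all genes 0.04, 0.02, 0.03 and 0.01.

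In later germ cells the calls fell on Hspa5, Hspa8 and Hsp90ab1. In mid-stage round spermatid-like cells 2 of 8 members were higher and 0 lower, against 12.1% and 5.75% of all genes. They were Hspa8, at 1.36 (1.05 to 1.67), and Hspa5, at 0.75 (0.62 to 0.88). In late-stage round spermatid-like cells 2 of 7 were higher and 0 lower, against 10.7% and 6%. Hspa5 held 33 WT and 101 KO UMIs, a log2 ratio of 1.76 (1.18 to 2.37), or 0.71 when clustered without heat shock genes, and Hsp90ab1 held 78 and 127, a ratio of 0.85 (0.43 to 1.27).

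In sperm-like cells 3 of 8 members were higher and 0 lower, against 20.7% and 5.78% of all genes. Hspa8 held 28 UMIs in 2404 WT cells and 81 in 1311 KO cells, a ratio of 2.44 (1.80 to 3.12). Hsp90ab1 had a ratio of 1.33 (1.01 to 1.65) and Hspa5 of 0.76 (0.48 to 1.04). The member medians were 0.22, 0.25 and 0.31 in the 3 later classes, beside 0.01, 0.02 and 0.16 over all genes. The germ cell members Hspa1l, Hspa2, Hspa4l and Hsph1 had ratios between -0.20 and 0.39 in late spermatocyte-like cells and all spermatid and sperm-like classes. Single clusters could lie outside this range of class sums. Hspa1l was at 1.17 (0.96 to 1.38) in the sperm-like Itpr3os cluster. In the mid-stage class it was at -0.42 in the Slc39a12 cluster and 0.36 in the Cd46 cluster.

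The 3 genes called in late germ cells are abundant in somatic cells and also in earlier germ cells. In spermatogonia-like cells Hspa8 stood at 84.4% (WT) and 57.9% (KO) of its Leydig-like level, and Hsp90ab1 at 204% and 179%. Hspa5 stood at 660% and 735% in early spermatocyte-like cells. All 12 Leydig markers had UMIs in sperm-like cells of both libraries, their median was 0.0333% (WT) and 0.180% (KO) of what Leydig-like cells held, and their summed level was 13.1 and 58.7 CPM. Over the 7 germ cell classes that sum ranged from 13.1 to 232 CPM in WT and from 46.2 to 312 CPM in KO. It was higher in KO in each of them, also in spermatogonia-like cells (79.6 and 164 CPM), where no member was called. Set against its own value in Leydig-like cells, Hspa8 in sperm-like cells stood at 0.130% (WT) and 0.555% (KO), Hsp90ab1 at 0.862% and 1.51%, and Hspa5 at 0.970% and 1.32%. The part of RNA from other cells, somatic or germ, in these ratios was not tested.

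Leydig-like cells, which make testosterone, had 3 of 10 members higher in KO and 2 lower, against 12.2% and 18.9% of all genes. Those higher were Hspa1b at 0.63 (0.09 to 1.22), Hsp90aa1 at 0.64 (0.49 to 0.80) and Hspa1l at 0.88 (-0.29 to 2.35), the last from 6 WT and 109 KO UMIs. Hspa1l was at 0.27 when clustered at a finer resolution, 0.50 without doublets and 0.075 in thinned cells, all within 1.5-fold. Hspa1a had a ratio of 0.57 (0.28 to 0.87) and Hsp90ab1 of 0.52 (0.41 to 0.64), just under 1.5-fold. The median of the members was 0.44, and that of all genes -0.04.

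The genes lower in KO Leydig-like cells were Hspa2, at 67.5 and 36.7 CPM or -0.88 (-1.25 to -0.49), and Hspa4l, at 137 and 81.2 CPM or -0.75 (-1.01 to -0.49). Both are germ cell genes, and genes over 5 times higher in germ cells took 8.27% of the UMIs of WT and 3.54% of KO Leydig-like cells. The part of such RNA in these ratios was not tested. Hspa4l fell within 1.5-fold at a finer clustering resolution (-0.46), without integration (-0.49) and in cells with over 1000 genes (-0.58). Hspa2 did not keep its direction, as clustering at a finer resolution gave 0.32 and merging the libraries without integration gave 0.03. With totals that leave out those germ cell genes, Hspa1b stood at 0.56 and Hsp90aa1 at 0.57, under the threshold. Hspa1b was also under it at the finer resolution (0.53) and without integration (0.58), and Hsp90aa1 when clustered without heat shock genes (0.57).

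Macrophage-like cells had 4 of 7 members higher and 0 lower, against 20.6% and 22.1% of all genes, from 26 WT and 81 KO cells. Hsp90ab1 had a log2 ratio of 1.66 (1.27 to 2.07), Hsp90aa1 of 0.77 (0.53 to 1.01), Hspa1a of 0.69 (0.25 to 1.14) and Hspa5 of 0.60 (0.37 to 0.84). Hspa8, at 0.58 (0.33 to 0.83), was just under the threshold. The member median was 0.60 and that of all genes 0.00. Both HSP90 genes stayed past 1.5-fold under every other setting, whereas Hspa1a and Hspa5 did not, with lowest values of 0.37 for each. Genes over 5 times higher in germ cells took 30.5% of the UMIs of WT and 23.0% of KO macrophage-like cells. With totals that leave those genes out, Hspa1a stood at 0.54 and Hspa5 at 0.45, under the threshold. Hsp90ab1 stood at 1.51 and Hsp90aa1 at 0.62. The part of such RNA in these ratios was not tested.

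Sertoli-like cells, the nurse cells of the tubule, had 4 of 8 members higher and 2 lower, but 61.2% of all genes were called higher there and 17% lower. The median of all genes was 0.87 and that of the members 0.32. Hsp90ab1 had a ratio of 1.32, Hspa8 of 1.22, Hspa5 of 1.11 and Hsp90aa1 of 0.77. Centred on the median gene these were 0.45, 0.35, 0.24 and -0.09, all within 1.5-fold. Among Sertoli-like cells with a UMI of at least 5 markers, 36 in WT and 454 in KO, they were 1.06, 0.91, 0.79 and 0.50 without centring. The median of all genes in those cells is not at hand, so these values may still hold the shift of all genes.

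Of the germ cell members, Hspa1l and Hspa4l were lower in KO in the same cells. Hspa1l stood at 124 CPM (93.8 to 160.4) in WT and 29.7 CPM (24.9 to 35.0) in KO, a ratio of -2.06 (-2.52 to -1.59), and Hspa4l at 539 and 231 CPM, a ratio of -1.22 (-1.42 to -1.01). Hspa2, at -0.23 (-0.75 to 0.34), and Hsph1, at -0.13 (-0.81 to 0.64), lay within 1.5-fold. The WT level of Hspa1l was 64.8% of its highest germ cell level, and the KO level 11.9%, beside the medians of 53.4% and 14.5% given above for 20 sperm transcripts. The part of that RNA in these ratios was not tested.

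**Figure D5:**
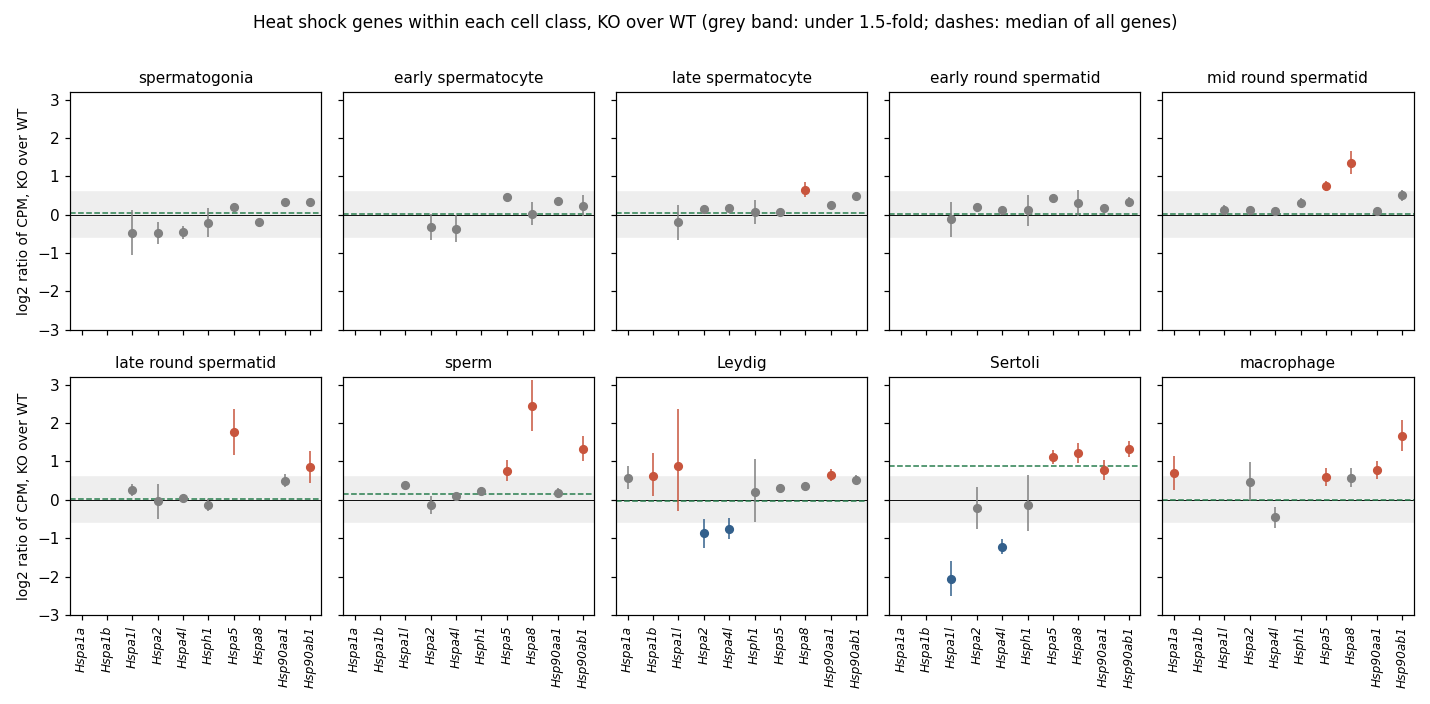
Log2 ratio of CPM, KO over WT, of each gene in 10 cell classes, with 95% conditional intervals. Red and blue points are at least 1.5-fold higher or lower, grey points lie within the grey band or were not past it, genes under 100 UMIs are not drawn, and the dashed line is the median of all genes, which is 0.87 in Sertoli-like cells.

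Partners of these chaperones, other chaperones, heat shock and stress response genes and immediate early genes were read from 10 lists that hold 135 entries in all. In Leydig-like cells, of 22 J-domain genes read, 1 was higher and 8 lower in KO, against the 12.2% and 18.9% of all genes that hold for each list in this class. The higher one was Dnajb1, at 246 CPM in WT and 384 CPM in KO or 0.64 (0.46 to 0.83). Among those lower were Dnajb13, at -2.16, and Dnajc5g, at -1.12, both known from sperm. Of 11 exchange factors and adaptors 2 were higher and 2 lower. Bag3, a heat-inducible adaptor of HSP70, stood at 30.8 and 56.6 CPM or 0.88 (0.36 to 1.44), and Bag5 at -0.88. Dnajb1 and Bag3 are known targets of heat shock factor 1.

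Of 16 HSP90 co-chaperones in Leydig-like cells only Fkbp6 was higher and 0 were lower, and of 16 small heat shock proteins and chaperonins 0 were higher and 2 lower, Hspb9 at -1.38 and Cct6b at -0.61. Of the heat shock factor list 2 genes were read and neither was called. Among 23 genes of endoplasmic reticulum chaperones and stress response 3 were higher, Ddit3 at 0.95, Atf4 at 0.64 and Atf6 at 0.61, and 2 were lower, Creld2 at -1.44 and Syvn1 at -0.89. Ddit3 and Atf4 encode transcription factors of the stress response, whereas Hspa5 in the same cells had a ratio of 0.32. The spermatid chaperones Pdilt and Clgn had ratios of -2.67 and -1.35.

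Of the 10 lists, that of immediate early genes had the most genes called higher in Leydig-like cells. There 17 of 20 were higher in KO and 1, Cebpb, was lower, with a median of 1.24 and a summed level of 4856 CPM in WT and 11109 CPM in KO. Ier3 had a ratio of 2.36 and Atf3 of 1.93. In Sertoli-like cells 16 of 17 were higher, among them Atf3 at 6.06 (4.52 to 8.34) from 3 WT and 2029 KO UMIs, beside the 61.2% of all genes called there. In macrophage-like cells 2 of 17 were higher and 1 lower, shares below the 20.6% and 22.1% of all genes. The summed level there was 8219 CPM in WT and 8995 CPM in KO. In spermatogonia-like cells, where no member was called, 8 of 15 were higher and 0 lower, against 8% and 13.7% of all genes. The inducible members and these genes are known to respond to the handling of living tissue, and the part of such handling in the ratios was not tested.

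In Sertoli-like cells, read against the shift of all genes, 16 of 21 endoplasmic reticulum genes, 11 of 13 HSP90 co-chaperones and 5 of 5 other HSP70 genes were higher, with medians of 1.21, 1.04 and 1.12 beside 0.87 over all genes. Other lists lay under that shift. Of 22 J-domain genes 4 were higher and 10 lower, with a median of -0.56, of 10 exchange factors and adaptors 5 and 2, at 0.52, and of 14 small heat shock proteins and chaperonins 8 and 3, at 0.70. In macrophage-like cells 4 of 9 endoplasmic reticulum genes were higher, Hsp90b1 at 1.04 among them, and 4 of 12 small heat shock proteins and chaperonins, with Hspe1 at 2.59 and Hspb1 at 2.19, against 20.6% of all genes. Of 13 J-domain genes 3 were higher and 4 lower, with a median of -0.13, and the exchange factors and HSP90 co-chaperones, with 3 genes read in each list, had medians of -0.42 and -0.23.

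In sperm-like cells 3 of 12 endoplasmic reticulum genes were higher in KO, near the 20.7% of all genes, and 0 were lower. Those higher were Calr at 1.15, Hsp90b1 at 0.90 and Manf at 0.87. Calr and Hsp90b1 are partners of Hspa5 in the endoplasmic reticulum. In mid-stage round spermatid-like cells 1 of 19 was higher against 12.1% of all genes, Hsp90b1 at 0.65. In late-stage cells 3 of 9 were higher against 10.7%, Manf at 0.98, Hsp90b1 at 0.92 and Calr at 0.59. Of 11 small heat shock proteins and chaperonins in sperm-like cells 2 were higher, Cct3 at 1.12 and Cct6a at 1.01, a share below that of all genes, and the summed level of the list was 2489 CPM in WT and 2174 CPM in KO. Immediate early genes were higher in 9 of 14 cases in mid-stage round spermatid-like cells, with a summed level of 144 CPM in WT and 218 CPM in KO. The values for Leydig markers given above for these cells apply to each of these genes.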

How the data were processed

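The data are 1 WT and 1 KO library of single-cell RNA from testis. The testis was digested with enzymes, and cells were captured with the GEXSCOPE kit. The authors dropped read pairs lacking poly T, extracted barcodes and UMIs, trimmed and aligned read 2 and assigned it to genes. The submitters' processing notes list featureCounts 1.6.2, STAR 2.5.3a and fastp 1. The deposited values are raw UMI counts per gene and barcode. The methods name the human build GRCh38, while the symbols are those of mouse. Positions were therefore taken by symbol from GENCODE vM21 on GRCm38.

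Both tables were clustered in R 4.3.3 with Seurat 5.3.0, following the settings of the methods (over 500 genes per cell, which removed no barcode, 2000 variable features, 20 anchor dimensions, 30 principal components, resolution 0.3), with seed 1. The study reports fewer cells after quality control, in both libraries, than the barcodes used here, so its set of cells was not reproduced. Of the members, 5 were among the variable features, and clustering without heat shock genes was an alternative. A marker counted in a cluster if at least 10% of its cells had a UMI and it was 2 times higher than elsewhere, and a name needed 3 markers. Some germ cell markers were listed by the study itself from the same cells. Scrublet in scanpy 1.11.5 (expected rate 0.06) called 243 WT and 348 KO doublets, which were kept, with their removal as an alternative.

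Sums have exact Poisson intervals, shares exact Clopper-Pearson intervals and ratios exact conditional intervals, all at 95%. A sum of 0 was set to a floor of 3 counts over the class for a ratio. The named genes were all members in every class, Alkbh5, the 3 genes most correlated with each member, and up to 4 genes per list and class with the largest ratio in each direction. Members and lists were chosen with earlier results of these data known. Python 3.11.15, numpy 2.4.6, scipy 1.17.1 and pandas 2.3.3 were used. The alternatives were resolution 0.8, no integration, removal of doublets, over 1000 genes per cell, totals that leave out mitochondrial and ribosomal protein genes, cells thinned to 5729 UMIs (the 10th percentile), equal weight per cluster, centring on the median gene, 2-fold, and no count minimum. Added after the data had been seen were totals without germ cell genes in somatic classes and Sertoli-like cells with at least 5 markers.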

Additional observations from a re-analysis of the deposited data

Results flagged for a closer look

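Hspa1l had opposite ratios in 2 somatic classes. KO over WT it was 0.88 on the log2 scale in Leydig-like cells, from 6 and 109 UMIs, and -2.06 in Sertoli-like cells, from 57 and 138 UMIs, a difference of 2.94. Each class gives 1 ratio from 1 library per genotype, so the difference was not tested, and the interval of the first ratio held 0. The Leydig-like ratio was as low as 0.075, in thinned cells. Set against sperm-like cells, the 20 sperm transcripts had medians of 6.75% and 5.82% in WT and KO Leydig-like cells and of 53.4% and 14.5% in Sertoli-like cells, and their part in the difference was not tested.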

How the results depend on the processing

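Of the 23 called pairs of member and class, 11 stayed past 1.5-fold in every alternative with a value. Not every alternative could move every pair. Equal weight per cluster left classes of 1 cluster unchanged, and those added later acted on somatic or Sertoli-like classes only. The main counts were 19 higher and 4 lower, where by class 6.47% to 61.2% of all genes read were higher and 5.34% to 22.1% lower. Higher pairs numbered 15 to 21 over the alternatives other than the threshold and the count minimum. Lower pairs numbered 2 at resolution 0.8 and 2 without integration, which left no late-stage round spermatid-like class, so that 90 pairs remained. Centring on the median gene gave 16 higher and 6 lower pairs. A 2-fold threshold gave 8 higher and 2 lower, and no count minimum gave 30 and 11, both by construction. Without the minimum, sums of 0 entered at the floor of 3 counts, so some pairs without a WT UMI counted as lower. Hspa1b in Sertoli-like cells, with 0 WT and 14 KO UMIs, was such a pair, and these lower counts are not read. Hspa2 in Leydig-like cells turned from -0.88 to 0.32 at resolution 0.8 and to 0.035 without integration, and Hsp90aa1 in Sertoli-like cells turned from 0.77 to -0.095 when centred, which takes off the shift of all genes. The cause of the Hspa2 turn was not tested. The class with the highest level was the same for 18 to 20 of 20 combinations of gene and library. No paired analysis was possible because each genotype has 1 library.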
